A study of Homo sapiens with 3 samples.

Results

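The 8 genes HNF4A, ONECUT1, ONECUT2, HHEX, PROX1, GATA4, GATA6 and NR5A2 encode transcription factors of the hepatocyte lineage. They were examined for FOXM1 peaks, called by ChIP-seq (sequencing of DNA pulled down with an antibody), in Huh7, an established human hepatocellular carcinoma line. A peak belonged to a gene where its summit lay inside the RefSeq gene on GRCh38 or within 20 kb of it, and 21 of the 19773 peaks in the lists met this rule, 8 in replicate 2 and 13 in replicate 3. The series had 3 samples, all of untreated Huh7 cells: 1 input without antibody, which enters no value here as a list of its own, and 2 ChIP libraries from the FOXM1 antibody G-5, titled replicates 2 and 3. The labels do not state whether the libraries came from separate cultures. The cells are a cancer line and not primary hepatocytes, and with no expression data here their identity could not be checked against marker genes. No library from another antibody or from cells without FOXM1 is part of the series, so whether a peak is specific to FOXM1 was not tested.

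The liver lineage is set up by a network of factors that bind each other's regulatory regions. GATA4 and GATA6 are zinc finger factors that act early, when foregut endoderm takes on liver fate, and HHEX and PROX1 are homeobox factors needed for growth of the liver bud and for migration of hepatoblasts. ONECUT1 (also called HNF6) and ONECUT2 carry cut and homeobox domains and act in hepatocyte and bile duct differentiation. HNF4A is a nuclear receptor that maintains hepatocyte identity and is transcribed from alternative upstream and downstream promoters. NR5A2 (also called LRH-1) is an orphan nuclear receptor of bile acid and cholesterol metabolism. FOXM1 is a forkhead factor best known as an activator of mitotic genes.

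The sequences at gene starts are shown for the genes whose peaks lay at, beside or away from a start: HHEX and ONECUT1 had a peak over the start window, NR5A2 and GATA6 had peaks beside it, and HNF4A had none near. Each window runs from 250 bases before to 50 bases after a RefSeq start (GRCh38.p14), 5′ to 3′ along the gene. Capitals mark matches, on either strand, to a set of short motifs. These were the forkhead core TGTTTA and its longer form TGTTTAC, the CHR element TTTGAA, the box CCAAT, the GC box GGGCGG and the E-box CACGTG. Next were an HNF4 motif CAAAGTCCA and an HNF6 motif ATCAAT. The zinc finger motif searched was AGATAA, known from the GATA family. The core promoter element was TATAAA. The forkhead core lies within its longer form, and other matches can overlap.
HHEX (chr10:92689705-92690004, plus strand): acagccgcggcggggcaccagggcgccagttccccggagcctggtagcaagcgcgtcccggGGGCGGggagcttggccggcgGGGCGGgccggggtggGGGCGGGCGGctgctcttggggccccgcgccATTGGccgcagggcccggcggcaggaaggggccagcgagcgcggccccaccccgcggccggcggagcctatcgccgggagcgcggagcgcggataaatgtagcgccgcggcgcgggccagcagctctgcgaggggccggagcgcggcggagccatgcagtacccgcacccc
ONECUT1 (chr15:52790287-52790586, minus strand): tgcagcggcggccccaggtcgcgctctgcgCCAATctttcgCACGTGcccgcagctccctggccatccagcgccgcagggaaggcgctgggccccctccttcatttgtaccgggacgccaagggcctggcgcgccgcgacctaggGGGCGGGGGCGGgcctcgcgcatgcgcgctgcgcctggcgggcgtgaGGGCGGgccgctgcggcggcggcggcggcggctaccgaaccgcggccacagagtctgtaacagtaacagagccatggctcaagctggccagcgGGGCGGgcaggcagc
GATA6 (chr18:22169339-22169638, plus strand): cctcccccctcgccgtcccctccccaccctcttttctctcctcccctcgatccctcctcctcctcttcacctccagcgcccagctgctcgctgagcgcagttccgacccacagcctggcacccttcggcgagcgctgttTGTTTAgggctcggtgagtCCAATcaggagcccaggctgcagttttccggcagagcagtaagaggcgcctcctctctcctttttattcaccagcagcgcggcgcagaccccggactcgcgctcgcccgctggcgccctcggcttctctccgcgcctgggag
NR5A2, inner start (chr1:200042341-200042640, plus strand): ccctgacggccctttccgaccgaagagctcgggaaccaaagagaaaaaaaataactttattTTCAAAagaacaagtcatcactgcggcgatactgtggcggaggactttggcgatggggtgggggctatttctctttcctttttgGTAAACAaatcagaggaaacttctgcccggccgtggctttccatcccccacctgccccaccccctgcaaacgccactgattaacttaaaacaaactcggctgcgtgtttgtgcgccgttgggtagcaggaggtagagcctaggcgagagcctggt
HNF4A, upstream start (chr20:44355449-44355748, plus strand): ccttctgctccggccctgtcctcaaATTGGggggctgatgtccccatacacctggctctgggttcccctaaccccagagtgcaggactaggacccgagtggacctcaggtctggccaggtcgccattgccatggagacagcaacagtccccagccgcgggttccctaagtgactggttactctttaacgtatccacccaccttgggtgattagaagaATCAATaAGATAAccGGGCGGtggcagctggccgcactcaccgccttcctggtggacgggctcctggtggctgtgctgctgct
HNF4A, downstream start (chr20:44400989-44401288, plus strand): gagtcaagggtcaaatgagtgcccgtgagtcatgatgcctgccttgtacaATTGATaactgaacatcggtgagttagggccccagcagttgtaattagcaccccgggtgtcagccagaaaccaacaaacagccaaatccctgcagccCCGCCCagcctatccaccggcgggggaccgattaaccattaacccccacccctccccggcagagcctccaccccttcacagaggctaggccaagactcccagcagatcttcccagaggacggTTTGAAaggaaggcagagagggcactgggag

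The windows of HHEX and ONECUT1 are dense in C and G and held 4 GC boxes each. The only forkhead cores among the 8 start windows of these genes were 1 in GATA6, 111 bases before the start, and 1 in the inner NR5A2 window, 104 bases before it, the latter as part of the longer form. Over all 34789 start windows of the reference, 12.3% held the forkhead core, 3.42% its longer form and 44.9% a GC box. The upstream HNF4A window held an HNF6 and a GATA motif, and the downstream window had an HNF6 motif. The HNF4 motif was in none of the 8 windows, and in 0.385% of all. A match is a run of letters and not a measured binding site. For PROX1 and GATA4 no start window was used.

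Of the 8 genes, 5 had at least 1 peak in replicate 2 (62.5%), where 41.3% of the 19974 protein-coding genes on chromosomes 1 to 22 and X had 1 by the same rule. In replicate 3 it was 6 (75%), against 49.7% of all. A peak of either library was present for 6 of 8, against 54.8%. A shared peak, one in each library with at least 1 bp of overlap, was present for HHEX and GATA4 alone, which is 2 of 8 (25%), against 32.3%. The shares for peaks of each library lay above those of all genes and the share for shared peaks below, which was not tested, and 1 gene more or less moves a share by 12.5 percentage points. A longer window can hold more peaks: 82.2% of genes had a longer window than HHEX and 10.2% had a longer one than NR5A2.

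**Figure D1:**
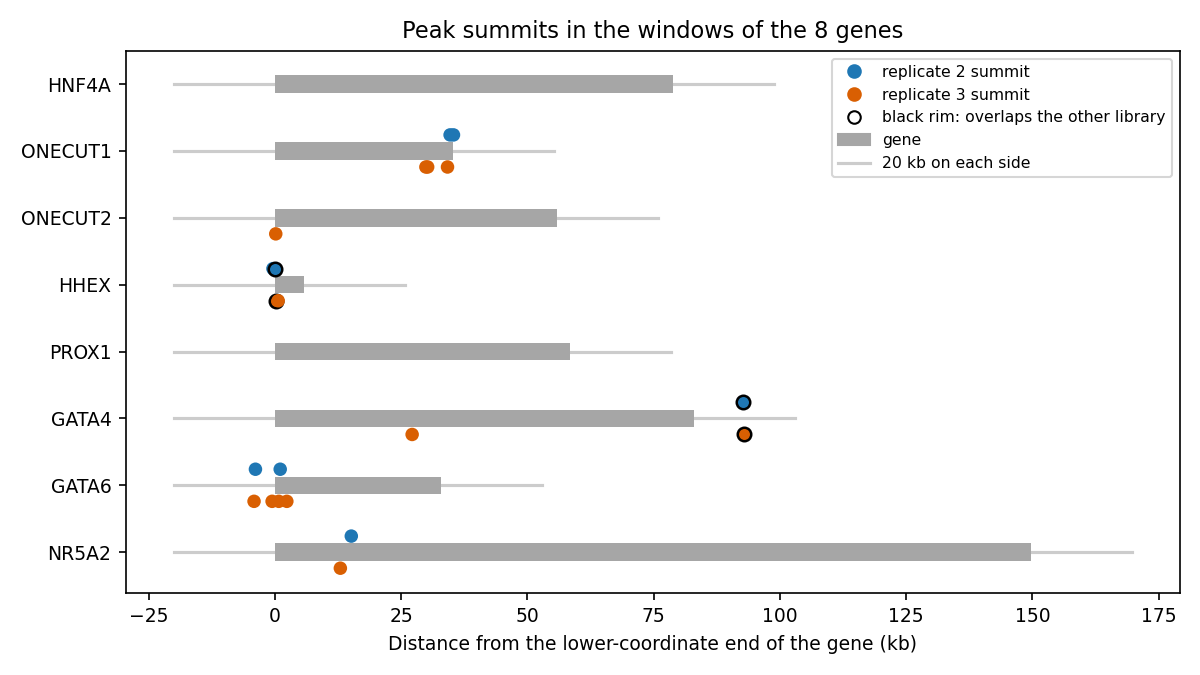
Each row is 1 gene drawn from its lower-coordinate end in kb (grey bar), with 20 kb on each side (thin line), and points are peak summits of replicate 2 (above the gene) and replicate 3 (below it), with a black rim where the peak overlaps one of the other library. HNF4A and PROX1 have no point, and the rimmed points are at HHEX and beyond the end of GATA4.

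Peaks are described by fold enrichment, the authors' linear ratio of signal at the summit to local background, and by the authors' −log10 q. The full lists held 8271 and 11502 peaks, and their median folds were 3.76 in replicate 2 and 3.78 in replicate 3. The peaks of the 8 genes ran from fold 2.81 to 5.14 in replicate 2 (median 3.49) and from 2.63 to 5.41 in replicate 3 (median 3.85). In replicate 2, 2 of 8 lay above that library's median fold, and in replicate 3 it was 7 of 13. Overlap with the other library was seen for 2 of the 8 peaks in replicate 2 (25%) and 2 of the 13 in replicate 3 (15.4%), whereas over the full lists it was 69.4% and 49.5%. The difference between these shares was not tested.

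HHEX was the gene whose start was covered in both libraries. Replicate 2 had a peak with fold 3.83 and −log10 q of 3.09 (chromosome 10, 92689886 to 92690168), its summit 25 bp upstream of the start. Replicate 3 had one with fold 5.40 and −log10 q of 8.01 (92689872 to 92690295), its summit 230 bp downstream, inside the gene. Only 3.49% of replicate 3 peaks had a higher fold, while in replicate 2 it was 45.9%. The peaks shared 283 bp, all of the replicate 2 peak and 66.7% of the replicate 3 peak, and their summits were 255 bp apart.

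Each library also had a second HHEX peak with no overlap. In replicate 2 it lay 380 bp upstream (fold 3.68, −log10 q of 3.78), and in replicate 3 it lay 658 bp downstream (fold 3.86, −log10 q of 3.59). All 4 summits were thus within 1 kb of the HHEX start, those of replicate 2 before it and those of replicate 3 after it. Of the start window printed above, the replicate 2 peaks covered the first 37 and the last 119 bases and the replicate 3 peak the last 133, so the GC boxes lay between the replicate 2 peaks.

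ONECUT1 had peaks of both libraries near its start, none overlapping. In replicate 2 the strongest peak among all 8 genes in that library had fold 5.14 and −log10 q of 6.33 (chromosome 15, 52790375 to 52790596), and 5.30% of replicate 2 peaks had a higher fold. Its summit was 89 bp upstream of the ONECUT1 start and 5 bp outside the long noncoding RNA gene LOC105370824, so it stands between neighbouring genes. The peak covered 212 of the 300 bases of the start window. A weaker replicate 2 peak had its summit 582 bp downstream (fold 3.56, −log10 q of 3.33).

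Replicate 3 had no peak over the ONECUT1 start window. Its nearest summit was 1093 bp downstream (fold 4.30, −log10 q of 4.29; chromosome 15, 52789152 to 52789273), separated by 234 bp from the weaker replicate 2 peak. Further inside the gene, replicate 3 had summits 5022 bp (fold 3.57) and 5374 bp (fold 4.17) downstream, where replicate 2 had none. The start window of ONECUT1 was thus touched in replicate 2 alone, by a peak lying wholly upstream of the start itself. Both libraries had summits inside the gene, at different positions. ONECUT2 had a single peak, in replicate 3, with its summit 179 bp inside the gene from the start (chromosome 18, 57435480 to 57435665). Its fold of 2.63 and −log10 q of 1.32 were the lowest among the 8 genes, and 99.5% of replicate 3 peaks had a higher −log10 q. The nearest replicate 2 summit was 367543 bp away.

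**Figure D2:**
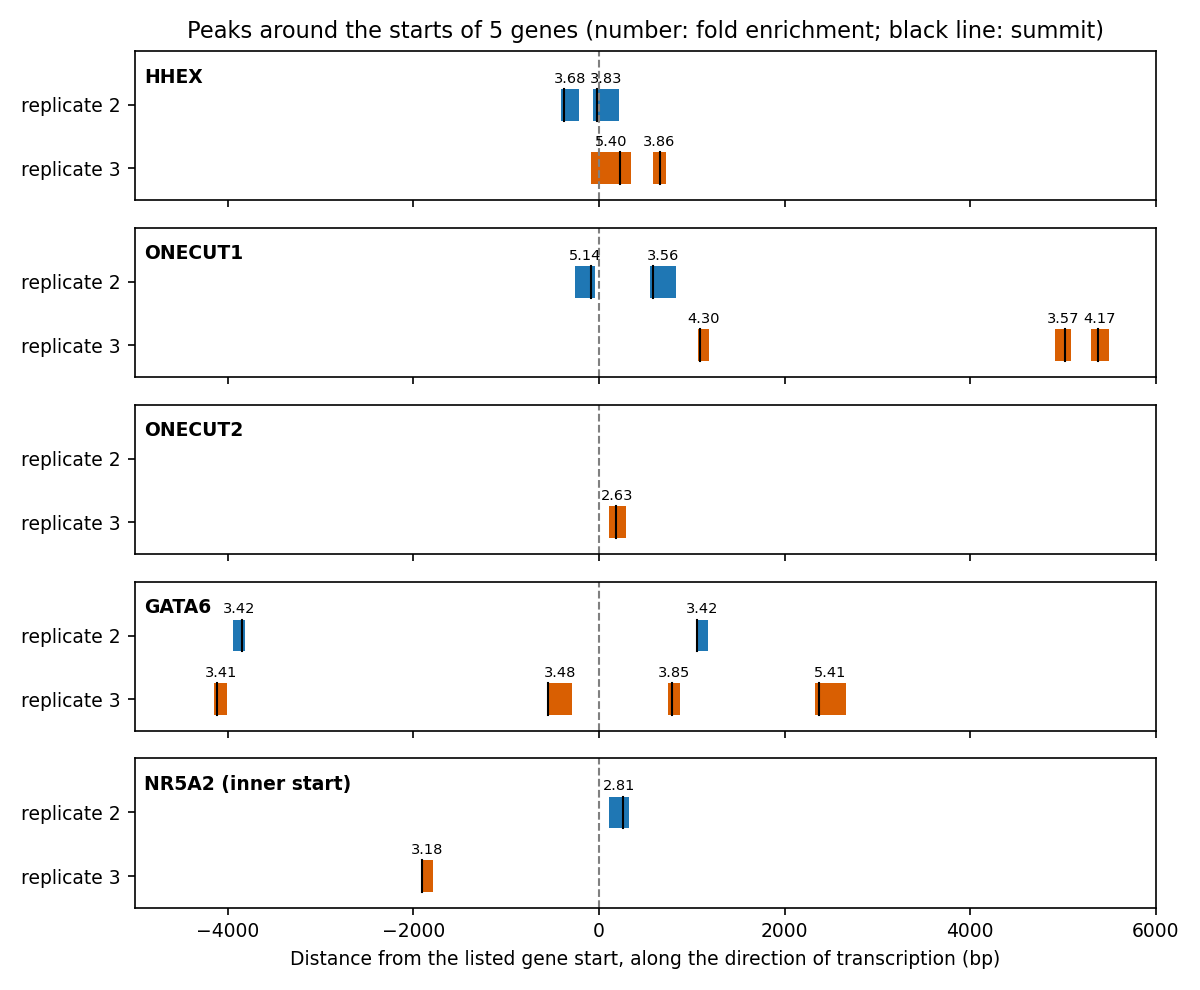
Peaks of replicate 2 and replicate 3 are drawn as bars against distance in bp from the listed gene start (dashed line, transcription to the right; for NR5A2 the inner start), with fold enrichment printed above and the summit as a black line. At HHEX alone the bars of the libraries overlap, while at GATA6 they lie side by side.

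GATA6 had the most peaks of the 8 genes, 2 in replicate 2 and 4 in replicate 3, spread over both sides of its start on chromosome 18. Only 4.04% of protein-coding genes had more replicate 3 peaks in their window. The replicate 2 summits lay 3845 bp upstream (fold 3.42, −log10 q of 2.86) and 1060 bp downstream (fold 3.42, −log10 q of 2.46). The replicate 3 summits lay 4119 bp upstream (fold 3.41), 545 bp upstream (fold 3.48), 782 bp downstream (fold 3.85) and 2372 bp downstream (fold 5.41). The last had −log10 q of 8.39 (22171921 to 22172248) and was the strongest replicate 3 peak of the 8 genes, with 3.32% of that library's peaks higher in fold.

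Neither replicate 2 peak at GATA6 overlapped one of replicate 3, but each had one close by. The upstream summits were 274 bp apart, with 64 bp between the peaks, and the downstream summits were 278 bp apart, with 173 bp between. The summit 545 bp upstream was 76 bp from the upper-coordinate end of GATA6-AS1, an antisense long noncoding RNA gene. The summits further upstream were 1154 and 1428 bp from its lower-coordinate end. Peaks carry no strand, so the genes cannot be told apart at these positions.

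In replicate 2, 6 peaks of the 8 genes had no overlap with replicate 3, and 4 of these (66.7%) had a replicate 3 summit within 1 kb. Over all 2514 such peaks of replicate 2 on chromosomes 1 to 22 and X, 38.3% did. From the other side, 4 of the 11 replicate 3 peaks without overlap (36.4%) had a replicate 2 summit within 1 kb, against 26.6% of all 5788. Under a rule of summits within 1 kb, chosen after seeing the data, ONECUT1 and GATA6 joined HHEX and GATA4 as genes with a shared call. A rule of summits within 100 bp, in contrast, left only GATA4. The share of all protein-coding genes with a shared call under either summit rule is not given here. The share of all genes given above is for overlap and is no comparison for these counts.

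GATA4 had its shared peak outside the gene, at a different gene's start. The replicate 2 peak (chromosome 8, 11769577 to 11769849) had fold 3.29 and −log10 q of 3.26, and the replicate 3 peak (11769623 to 11769822) had fold 2.998 and −log10 q of 2.07. The summits were 96 bp apart, 9678 and 9774 bp beyond the upper-coordinate end of GATA4. They lay only 30 and 66 bp from the lower-coordinate end of NEIL2, a DNA glycosylase gene of base excision repair, and within the long noncoding RNA gene LOC124901888. A further peak, in replicate 3 alone, was inside GATA4, 27185 bp from its nearer end, with fold 4.43 and −log10 q of 4.79, and the nearest replicate 2 summit was 65560 bp away. Neither end of GATA4 had a summit within 5 kb. No start was listed for GATA4, so distances were taken to its gene ends only. Whether the peak inside GATA4 stands at a start within the gene was not examined.

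NR5A2 had 1 weak peak in each library, both inside the gene and near its inner start. In replicate 2 the summit was 257 bp downstream of that start (chromosome 1, 200042695 to 200042914; fold 2.81, −log10 q of 1.58). In replicate 3 it was 1910 bp upstream (200040678 to 200040802; fold 3.18, −log10 q of 1.68). The summits were 2167 bp apart and did not count as shared under any rule tried. More than 95% of peaks in each library had a higher −log10 q, 96.4% in replicate 2 and 95.6% in replicate 3. No peak was near the outer start, 12971 bp or more away.

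HNF4A and PROX1 had no peak in either library. The nearest summits to HNF4A were 28828 bp below the gene in replicate 2 (fold 3.17) and 28883 bp below it in replicate 3 (fold 3.92), which are the first values outside the 20 kb limit. The last values inside it were the 9678 and 9774 bp at GATA4. A second pair of summits, 44557 and 44493 bp below HNF4A (fold 3.12 and 4.96), stood 60 and 4 bp from an end of FITM2, a lipid droplet gene. The nearest to PROX1 were 239736 bp (fold 5.91) and 239757 bp (fold 5.03) above it. No peak says only that the threshold of the lists was not passed: a −log10 q under 1.32 in replicate 2 and 1.31 in replicate 3 was not listed.

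Among the 6 genes with listed starts, 3 had a replicate 2 summit within 1 kb of a start (50%), namely ONECUT1, HHEX and NR5A2, against 27.1% of the 15812 protein-coding genes with a listed start. In replicate 3 it was also 3 (50%), namely ONECUT2, HHEX and GATA6, against 34.4%. HHEX was the only gene on both lists.

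The start windows differed in CpG number, from 0 to 44. HHEX had 44 CpG dinucleotides in 300 bases and 80.3% G and C, and ONECUT1 had 39 and 75%. GATA6 had 25, ONECUT2 had 24, the inner NR5A2 window had 16, the HNF4A windows had 11 and 9, and the outer NR5A2 window had 0. The windows of HHEX and ONECUT1 were the ones touched by a peak. Over all genes, 59.2% of windows with 30 or more CpG were touched by a peak of either library, 25.4% of those with 20 to 29, 5.87% of those with 10 to 19, 0.390% of those with 5 to 9 and 0.0194% of those with fewer. Windows touched in both libraries had a median of 37 CpG and those touched in neither had 8. The part of base composition in the peak calls, whether through cells or through library preparation, was not tested.

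The peaks rested on few fragments. Counts rebuilt from the deposited fold and p ran from 19 to 27 in replicate 2 and from 16 to 30 in replicate 3. Their medians of 23.5 and 21 lay below the library medians of 26 and 24.5. At the HHEX start the counts were 21 (exact Poisson 95% interval 13.0 to 32.1) in replicate 2 and 29 (19.4 to 41.6) in replicate 3, where the local background gave 4.60 and 4.44. Each count lies inside the interval of the other, but the summits were 255 bp apart. Total depth is unknown, and a difference between the libraries at HHEX was not tested. At the ONECUT1 summit 89 bp upstream of the start replicate 2 had 27 (17.8 to 39.3). At the strongest GATA6 peak replicate 3 had 30 (20.2 to 42.8).

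For each of the 17 peaks without overlap, the count needed in the other library to reach the lowest p of its list was computed at the same background. It ran from 15 to 22 over all 21 peaks. At 15 of the 17, the 95% interval of the library with the peak reached below the count needed. The same share was not computed over the full lists, so whether 15 of 17 is particular to these genes was not tested. The count of the library without the peak is not in the lists. One of the 2 exceptions was the ONECUT1 peak of replicate 2 with its summit 89 bp upstream (27 fragments, 15 needed). The other was the GATA6 peak 2372 bp downstream in replicate 3 (30 fragments, 17 needed). At ONECUT2 the replicate 3 peak had 20 fragments where replicate 2 would have needed 22. Peaks are in the lists because their counts were high, and the effect of that selection on this comparison was not tested.

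**Figure D3:**
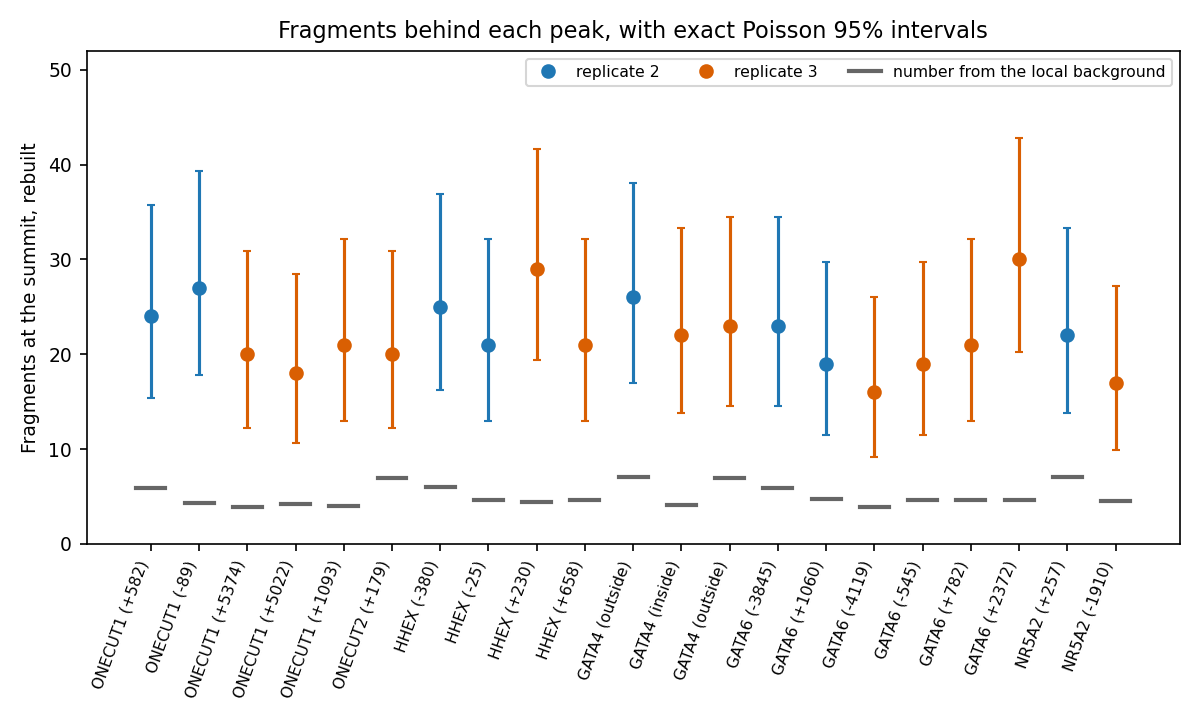
Points give the rebuilt number of fragments at each of the 21 summits (replicate 2 and replicate 3 by colour) with exact Poisson 95% intervals, grey lines the number given by the local background, and brackets the distance from the listed start in bp or, for GATA4, the place. The counts lie between 16 and 30, above a background of 3.88 to 7.07 fragments, and all the intervals overlap one another.

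Other liver factors gave a comparison by the same windows. Of the 21 reported here, which are not the whole list, 14 had a peak in replicate 2, 14 in replicate 3 and 13 a shared peak. The shares over all protein-coding genes were the 41.3%, 49.7% and 32.3% given above. By the lower fold of the 2 libraries the first was CEBPA, a bZIP factor of hepatocyte differentiation (fold 8.09 in replicate 2 and 5.60 in replicate 3), followed by PPARA, the fatty acid receptor (5.15 and 5.18, with summits 6535 and 6748 bp outside the gene). Next were ESRRA, an orphan receptor of mitochondrial metabolism (4.53 and 4.35), NR1H3, an oxysterol receptor (4.12 and 4.82, 1182 and 1147 bp outside), CEBPB (4.79 and 3.93) and SALL4 (5.25 and 3.86, 14029 and 14030 bp outside). Whether another gene lies nearer to a summit is given for the 8 genes but not for this list, so its peaks may stand at neighbouring genes. NR1H4, NR1I2, NR1I3, NR0B2, TBX3 and SOX17 had no peak, as HNF4A and PROX1 had none. The other 7 genes with a shared peak had lower folds from 2.87 (RXRA) to 3.80 (LHX2), so HHEX, at 3.83, and GATA4, at 2.998, were within the range of the list.

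Of the 8 paralogues HNF4G, ONECUT3, PROX2, GATA1, GATA2, GATA3, GATA5 and NR5A1, 3 had a peak in replicate 2 (37.5%, against 41.3% of all protein-coding genes) and 7 in replicate 3 (87.5%, against 49.7%). Shared peaks, present for 25% against 32.3%, were at GATA2, a blood and endothelial factor (4.32 and 5.22), and NR5A1, the steroidogenic relative of NR5A2 (4.20 and 3.75). Both lay inside their genes. The lower fold at GATA2 exceeded those of HHEX and GATA4, and that at NR5A1 lay between them. HNF4G had a replicate 3 peak where HNF4A had none.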

How the data were processed

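The build was GRCh38 and the tools were MACS2 2.2.7.1, BWA and CASAVA 1.4, per the submitters' processing notes, whose listing assigns them no role. Filters, duplicate handling and the control used are not given in the sources used here. The authors deposited a peak list and a summit list per ChIP library, not pooled. The deposited fold is a linear ratio at the summit, the deposited −log10 p and −log10 q belong to it, the deposited score is −log10 q times 10, and a further deposited column of another unit gives the summit offset.

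Positions are 1-based. Genes and starts came from RefSeq tables (GRCh38.p14), and 6 of the 8 genes matched a listed start. Fragments and background were rebuilt by taking fold as (scaled count + 1) over (background + 1) and p as a Poisson upper tail: 100% of peaks gave a whole count within 0.01, at scales of 0.848 and 0.869. At 847 shared pairs with summits within 20 bp the backgrounds of the libraries had a median ratio of 0.968. Code was tested on simulated data. Intervals cover counting error only, and total depth is unknown. With 2 libraries of 1 condition no test was run. The members and lists were chosen with earlier results of these data known. Named were all 8 genes, every gene nearer to or over their peaks, and up to 6 genes with a shared peak from each other list. LINC02905, nearer than GATA4 to its shared peak, is not described further. Some genes and a motif of the lists are not reported here. The CpG classes, the depth comparison and the 1 kb summit rule were set after seeing the data. Alternatives varied the window, threshold and overlap rule. Python 3.11.15, numpy 2.4.6, pandas 2.3.3, SciPy 1.17.1 and matplotlib 3.10.9 were used.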

Additional observations from a re-analysis of the deposited data

How the results depend on the processing

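Over the 8 genes, 16 of 38 values under other settings stayed within 1.5 times the reported count and 22 did not. With −log10 q of at least 5, 1 gene with 1 peak remained in replicate 2 (ONECUT1), 2 genes with 2 peaks in replicate 3 (HHEX and GATA6) and 0 shared. With fold of at least 4, replicate 2 had 1 gene with 1 peak, replicate 3 had 5 peaks at 4 genes, and 0 were shared. With summits inside the gene only, replicate 2 had 3 genes with 3 peaks, replicate 3 had 6 genes with 10 peaks, and 0 genes or peaks were shared. A window of 5 kb left 1 shared gene with 1 shared peak (HHEX), since the GATA4 pair lies beyond it, and 50 kb gave 3 genes (HNF4A added) with 5 shared peaks. Summits within 100 bp gave 1 shared gene and 1 shared peak (GATA4), and summits within 1 kb, added after seeing the data, gave 4 genes and 5 shared peaks. Reciprocal overlap of 50% kept both. The shares of all protein-coding genes under these other settings are not given here. Whether the changes are particular to the 8 genes was therefore not tested. Leaving out a library gave 5 to 6 genes with a peak. No paired analysis was possible because both ChIP libraries belong to 1 group. The peaks rested on 16 to 30 fragments, and the part of depth in their sharing was not tested.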
